A study of Mus musculus with 16 samples.

Results

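The glutathione S-transferases (Gst), UDP-glucuronosyltransferases (Ugt) and sulfotransferases (Sult) are the enzymes that attach glutathione, glucuronic acid or sulfate to drugs, steroids, bile acids and reactive metabolites. The genes described here come from the cytosolic Gst classes, with the mitochondrial and peroxisomal Gstk1, from Ugt families 1 to 3 and from the Sult families. All genes with such a symbol in the array's annotation were taken, without pseudogenes, if a probe set names 1 gene only. They number 45 of the 19935 genes measured, of which 19 are Gst, 10 Ugt and 16 Sult genes. This rule uses symbols and annotation alone, but the members were chosen with earlier results of these data known. Gstm3 alone had a further such probe set, and there the one of higher mean intensity was used. The Ugt1a genes, Gsta1, Gsta2, Gstp2, Ugt2a1, Ugt2a2 and 4 Sult2a genes share probe sets with relatives and are therefore not among the 45. With the pair of probe sets that Ugt3a1 and Ugt3a2 share, the shared probe sets number 11, and they are described separately.

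RNA from the livers of male mice on a mixed Sv129/C57Bl/6 background was measured on whole-transcript Affymetrix chips, with 1 array for each mouse. There were 3 knockout mice fasted for 24 h, 4 knockout mice that were fed, 5 wild-type mice fasted for 24 h and 4 wild-type mice that were fed. The knockout mice lack PPARβ/δ, a lipid-activated nuclear receptor encoded by Ppard, and the wild-type mice are their controls on the corresponding background. Neither the part of Ppard that was deleted nor the age of the mice is given in the sources used here. The labels call the replicates biological, so each was taken as a separate mouse.

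In the liver, Gst enzymes join glutathione to electrophiles and lipid peroxidation products, Ugt enzymes use UDP-glucuronate, and Sult enzymes use the sulfate donor PAPS. The conjugates leave the hepatocyte through export pumps of the Abcc family. Transcription of these genes is known to answer to the oxidative stress factor NRF2 (Nfe2l2), the xenobiotic receptors CAR (Nr1i3) and PXR (Nr1i2), the aryl hydrocarbon receptor and PPARα.

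Values are log2 of the deposited normalized intensities, and differences are log2 differences with the standard error (SE) of a limma fit of all 16 arrays. A gene counted as called at a Benjamini-Hochberg adjusted p under 0.05 over all 19935 genes. A gene is called dim here when its mean lay under the 40th percentile of gene means, a log2 value of 2.79, and 12 of the 45 members were dim (2 Gst, no Ugt and 10 Sult genes). The 9 measured hepatocyte markers had means between 11.49 and 12.30, while all 7 neutrophil markers and 5 of 6 kidney tubule markers were dim. Ppard itself read 4.36 to 4.58 in knockout fasted, 4.45 to 5.00 in knockout fed, 4.40 to 4.67 in wild-type fasted and 4.78 to 5.50 in wild-type fed livers, and did not pass the limma test between genotypes (adjusted p = 0.266 fed and 0.908 fasted). Because the deleted part is not known, this probe set does not check the genotype labels. Knockout fed mice 1 and 4 stood apart in the 20 measured acute phase genes, with mean scores of 1.27 and 2.02 above the genes' means over all arrays, and wild-type fasted mouse 5 stood apart in 8 pancreas markers, with a score of 2.16. In whole liver, fewer cells of a type and less RNA per cell cannot be told apart.

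**Figure D1:**
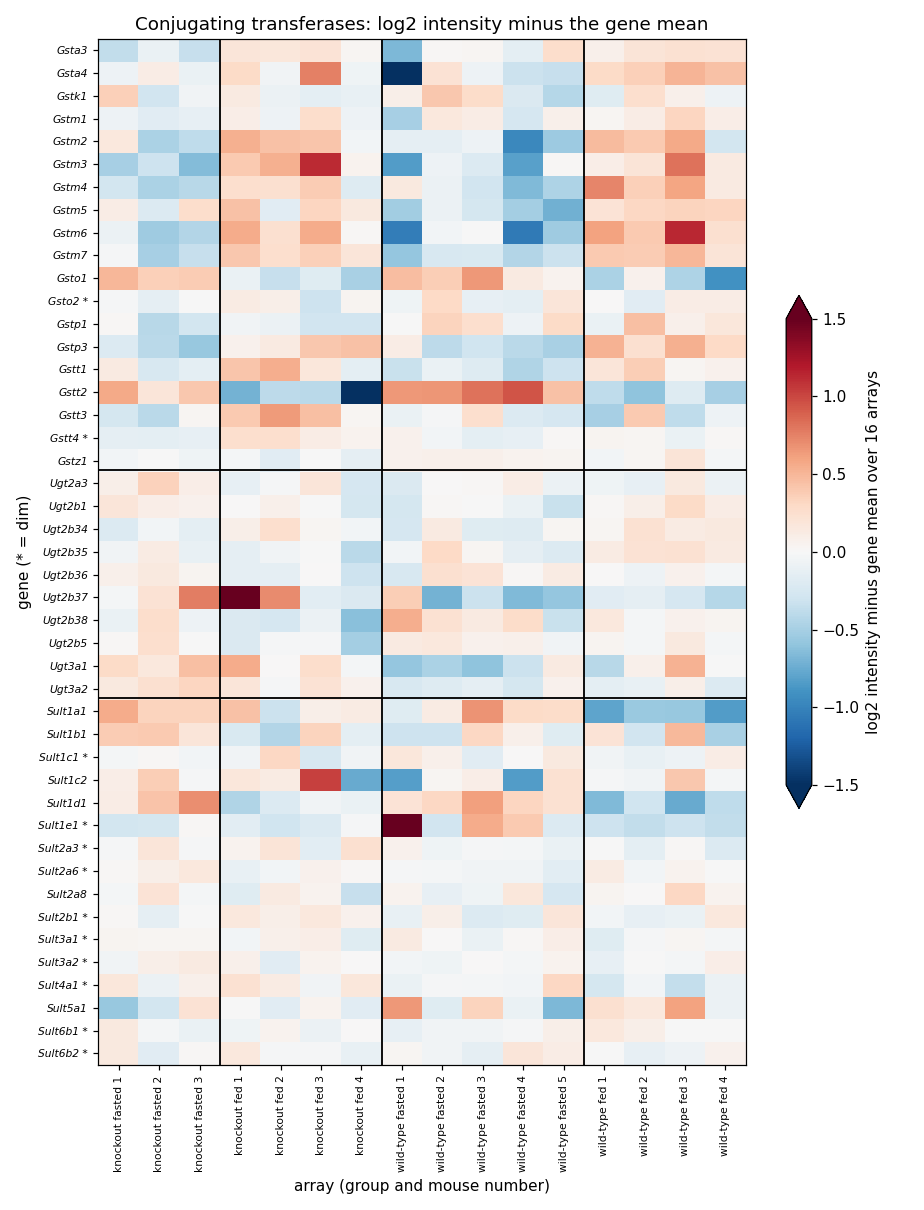
Log2 intensity of each of the 45 transferases in each of the 16 arrays, as the difference from that gene's mean over all arrays (red above, blue below, colour scale ending at 1.5). The mu class (Gstm) is mostly blue in both fasted groups, and Gsto1, Gstt2, Sult1a1 and Sult1d1 run the other way. The Ugt genes vary little apart from Ugt2b37, Ugt2b38 and Ugt3a1.

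On fasting, Gst genes were called in both directions and Sult genes upward, and no Ugt gene was called in either genotype. In knockout mice 3 of the 45 members rose and 4 fell on fasting (15.6% called, against 3.67% of all genes, of which 1.87% rose and 1.8% fell). In wild-type mice 4 rose and 6 fell (22.2% called, against 9.22% of all genes, of which 3.3% rose and 5.92% fell). Among the 33 members that were not dim the shares were 18.2% in knockout and 30.3% in wild-type mice, against 5.9% and 14.6% of all genes that were not dim. The median difference over all 45 members was -0.01 in knockout and -0.06 in wild-type mice, close to the -0.02 and 0.02 over all genes. Within the 19 Gst genes it was -0.30 in knockout mice, with 2 called higher and 4 lower, and -0.28 in wild-type mice, with 2 higher and 6 lower. Of the 16 Sult genes, 1 rose in knockout mice and 2 rose in wild-type mice. The genes called in both genotypes were Gstm7, Gsto1, Gstp3, Gstt2 and Sult1d1. Gstm3 and Gstt4 were called in knockout mice alone, and Gstm4, Gstm5, Gstm6, Gstt1 and Sult1a1 in wild-type mice alone. For Gstm3 this holds for the probe set used, while its other probe set, described below, passed in both genotypes. No member's fasting response was shown to differ between the genotypes: limma's interaction test called 0 of 45 members (0.01% of all genes were called), and 6 members had an unadjusted p under 0.05. The summed intensity of the 20 acute phase genes was 18860 to 20065 in fasted and 19573 to 40768 in fed knockout livers. These ranges overlap, and knockout fed mice 1 and 4 were the highest. Fasting differences were below 0 for 19 of the 20 genes in knockout and 12 in wild-type mice. In knockout mice Saa1 and Steap4 were called lower. In wild-type mice Mt2 was called higher (4.41 ± 1.17) and Fgg and Fgb lower. The interaction test called 0 of the 20. In knockout mice the 8 Kupffer cell and macrophage markers all had negative fasting differences (median -0.43), and 1 was called, Clec4f at -0.46 ± 0.12. In wild-type mice Clec4g of sinusoidal endothelium (-0.85 ± 0.20) and Col3a1 of stellate cells (-0.80 ± 0.21) were called lower. So were Alas2 of erythroid cells (-0.61 ± 0.12) and the hepatocyte marker Fgb (-0.31 ± 0.07), which is also in the acute phase list. Each was the only call in its cell type list. In those lists 4 of 8 endothelial, 2 of 9 stellate, 2 of 3 erythroid and 5 of 9 hepatocyte markers had differences above 0. The part of these cell markers in the fasting values of the transferases was not tested. Leaving out knockout fed mice 1 and 4 left 2 of the 7 calls, Gstm3 and Gstt2. With 3 mice in the knockout fasted group, precision was limited by how few arrays there were.

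**Figure D2:**
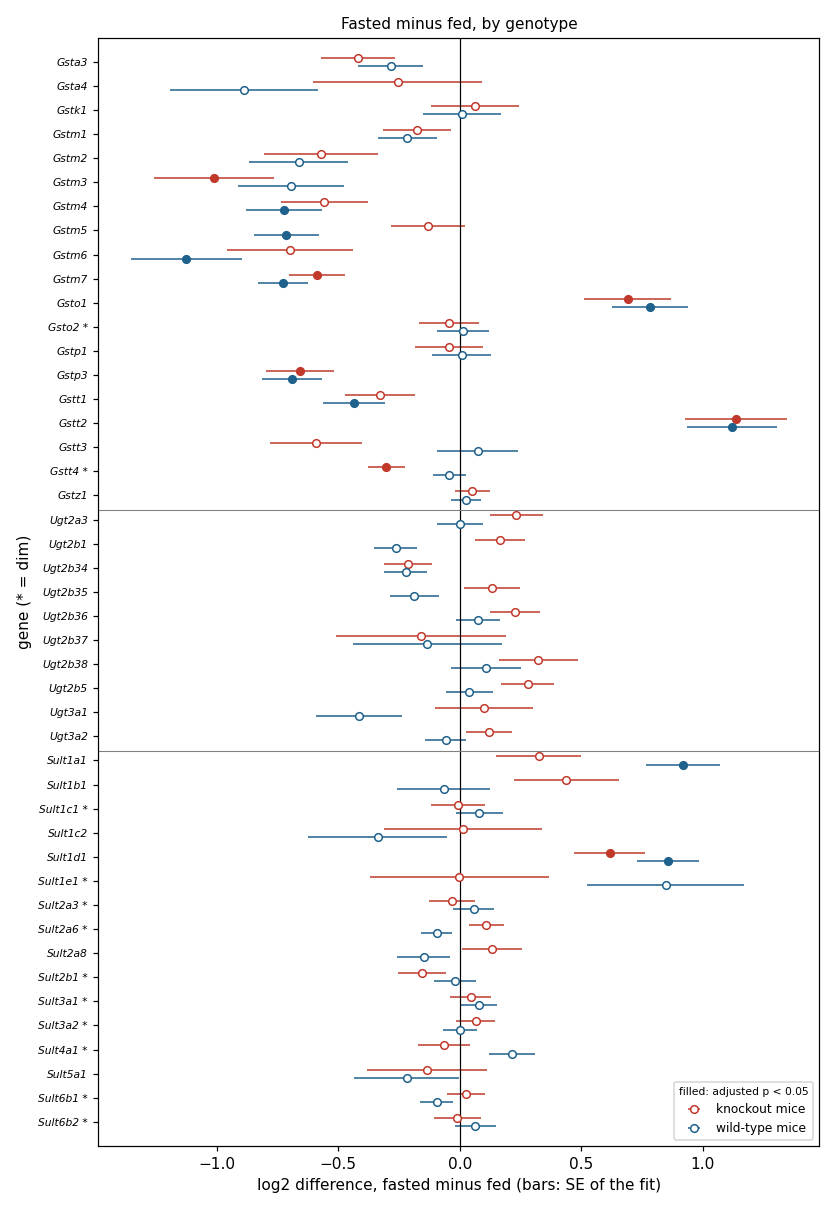
Fasted minus fed log2 difference of each member in knockout and in wild-type mice (points, with the SE of the limma fit as bars, filled where the adjusted p was under 0.05, dim genes starred). All 7 Gstm genes lie left of 0 in both genotypes, and Gsto1, Gstt2 and Sult1d1 lie right of it with filled points in both.

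The mu class showed the most uniform pattern. These enzymes conjugate glutathione to epoxides and other electrophiles, and the 7 genes lie next to one another on chromosome 3, in the order Gstm5, Gstm7, Gstm6, Gstm3, Gstm2, Gstm1 and Gstm4 in RefSeq. All 7 had negative fasting differences in both genotypes. In knockout mice 2 were called lower (Gstm3 and Gstm7) and the class median was -0.57. In wild-type mice 4 were called lower (Gstm4, Gstm5, Gstm6 and Gstm7) and the class median was -0.71. These counts take 1 probe set per gene, and the other Gstm3 probe set fell in both genotypes (-2.44 in knockout and -1.70 in wild-type mice). The genes have similar sequences, so that the signal of a probe set may include a relative, and they are not independent replicates of a response.

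Promoter windows of the pair at the start of the cluster are shown because both genes were called and the pair differ in the motifs that were searched. They are RefSeq sequences of GRCm38.p6, from 250 bases before to 50 bases after the annotated start, Gstm5 at chr3:107895604-107895903 on the plus strand and Gstm7 at chr3:107931768-107932067 on the minus strand, the first of 2 starts listed for it. Capitals mark the antioxidant response element core TGACNNNGC and the xenobiotic response element core GCGTG, searched on both strands.
Gstm5: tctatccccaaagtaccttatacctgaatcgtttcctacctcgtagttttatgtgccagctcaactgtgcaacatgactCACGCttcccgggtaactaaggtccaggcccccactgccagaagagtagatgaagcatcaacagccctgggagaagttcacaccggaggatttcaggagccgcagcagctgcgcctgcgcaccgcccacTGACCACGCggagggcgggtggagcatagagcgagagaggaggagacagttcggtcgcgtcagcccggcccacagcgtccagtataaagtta
Gstm7: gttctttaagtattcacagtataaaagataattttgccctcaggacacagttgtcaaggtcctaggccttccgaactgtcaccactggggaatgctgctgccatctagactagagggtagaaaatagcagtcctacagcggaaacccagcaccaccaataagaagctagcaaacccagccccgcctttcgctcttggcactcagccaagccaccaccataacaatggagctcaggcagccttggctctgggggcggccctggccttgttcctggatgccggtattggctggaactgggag
Gstm5 held the antioxidant core at bases -41 to -33 from the start and the xenobiotic core at -170 to -166 and again at -37 to -33, where it overlaps the antioxidant core. Gstm7 held neither. The antioxidant core was in 2 of the 41 members with a promoter window (Gsta3 and Gstm5), against 12.4% of all 32851 windows. The xenobiotic core was in 6 (Gstm1, Gstm5, Gstp1, Gstp3, Sult1d1 and Sult2b1), against 32.4% of all windows. The nuclear receptor half-site AGGTCA was in 8 members, against 16.3% of all windows, and 5 of those 8 were Ugt2b genes, with Gstk1, Sult1b1 and Sult1e1 beside them. Of the 11 called members with a window, 1 held the antioxidant core, 3 the xenobiotic core and 0 the nuclear receptor half-site. The direct repeat of that half-site with 1 base between, the form bound by PPAR and RXR pairs, was in none of the member windows searched. It was in 0.0396% of all windows. These matches are letters in a window and show no binding.

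Gstm7 had the smallest SE of the called mu genes in both genotypes. It read 7.26, 6.77 and 6.92 in knockout fasted mice and 7.67, 7.53, 7.63 and 7.46 in knockout fed mice. In wild-type mice it read 6.69, 7.03, 7.05, 6.83 and 6.95 fasted and 7.66, 7.65, 7.77 and 7.46 fed. Every fasted liver lay below every fed liver of its genotype. The difference was -0.59 ± 0.12 in knockout mice (limma, adjusted p = 0.00852) and -0.73 ± 0.10 in wild-type mice (adjusted p = 0.00023), which is 1.50-fold and 1.66-fold lower. Without knockout fasted mouse 2 the adjusted p in knockout mice was 0.0627.

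Gstm6 had the largest fall among the members called in wild-type mice. It read 7.0, 6.56 and 6.66 in knockout fasted, 7.65, 7.33, 7.65 and 7.12 in knockout fed, 6.06, 7.05, 7.08, 6.04 and 6.57 in wild-type fasted and 7.70, 7.49, 8.22 and 7.33 in wild-type fed livers. Fasted and fed livers did not overlap in either genotype. It fell 2.18-fold in wild-type mice (-1.12 ± 0.23, limma adjusted p = 0.00412), and the value in knockout mice was -0.70 ± 0.26 (adjusted p = 0.178). Gstm4 read 7.21, 7.01 and 7.07 in knockout fasted, 7.74, 7.73, 7.86 and 7.29 in knockout fed, 7.63, 7.40, 7.20, 6.82 and 7.02 in wild-type fasted and 8.22, 7.84, 8.07 and 7.62 in wild-type fed livers. Wild-type fasted mouse 1 and wild-type fed mouse 4 were level, and the other wild-type livers were separated by feeding state. Gstm4 fell 1.65-fold in wild-type mice (-0.72 ± 0.16, adjusted p = 0.00702), against -0.56 ± 0.18 in knockout mice (adjusted p = 0.107).

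Gstm5, whose product is known mainly from brain and testis, read 4.75, 4.44 and 4.90 in knockout fasted, 5.08, 4.47, 4.96 and 4.79 in knockout fed, 4.12, 4.55, 4.38, 4.13 and 3.92 in wild-type fasted and 4.85, 4.95, 4.97 and 4.96 in wild-type fed livers. The wild-type groups were apart, while the knockout groups overlapped. It fell 1.64-fold in wild-type mice (-0.71 ± 0.13, limma adjusted p = 0.00249), against -0.13 ± 0.15 in knockout mice (adjusted p = 0.778). The difference between these responses was 0.58 ± 0.20 with an adjusted p of 0.291, so it was not shown. Gstm1, a major mu enzyme of mouse liver, read 10.02 to 10.12 in knockout fasted, 10.11 to 10.46 in knockout fed, 9.70 to 10.35 in wild-type fasted and 10.22 to 10.51 in wild-type fed livers, and was not called (-0.18 ± 0.14 in knockout and -0.22 ± 0.12 in wild-type mice). Gstm2 was not called either, at -0.57 ± 0.23 in knockout and -0.66 ± 0.20 in wild-type mice (adjusted p = 0.233 and 0.0523). Leaving out wild-type fed mouse 4, whose Gstm2 of 5.76 was the lowest of its group, made the wild-type value -0.85 with an adjusted p of 0.0130. Leaving out wild-type fasted mouse 3, knockout fed mouse 4 or knockout fasted mouse 1 also made it a call (adjusted p = 0.0447, 0.0449 and 0.0453).

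Gstm3 is the member with a pair of probe sets, and they gave different sizes. The one used read 7.79, 7.97 and 7.64 in knockout fasted, 8.68, 8.82, 9.40 and 8.34 in knockout fed, 7.45, 8.21, 8.08, 7.47 and 8.30 in wild-type fasted and 8.39, 8.48, 9.10 and 8.42 in wild-type fed livers. Fasted and fed livers did not overlap in either genotype. It fell 2.01-fold in knockout mice (-1.01 ± 0.25, limma adjusted p = 0.0298), and the value in wild-type mice was -0.69 ± 0.22 (adjusted p = 0.0560). In knockout mice the call was lost without any 1 of knockout fed mice 1, 2 and 3 or of the 3 knockout fasted mice, with an adjusted p of up to 0.135 and values from -1.17 to -0.81 over all single omissions. The wild-type value became a call without wild-type fasted mouse 2 or 5 or knockout fed mouse 3 or 4, and with the median of the pair of probe sets (-1.19, adjusted p = 0.00282).

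The other Gstm3 probe set read 6.46, 6.20 and 6.36 in knockout fasted, 8.75, 8.99, 9.14 and 8.23 in knockout fed, 6.09, 6.90, 6.35, 5.82 and 7.32 in wild-type fasted and 8.03, 8.14, 8.67 and 7.93 in wild-type fed livers. Every fasted liver lay below every fed liver. In a limma fit of all 35519 probe sets, a choice made after seeing the data, the differences were -2.44 ± 0.31 in knockout (adjusted p = 0.000885) and -1.70 ± 0.27 in wild-type mice (adjusted p = 0.00162). Each of these probe sets lists 2 transcript accessions. By identifier order, the 10 named probe sets nearest the one used are all of chromosome 10 genes, while 9 of the 10 nearest the other one are of chromosome 3 genes, where Gstm3 lies. What the probe set used detects besides Gstm3 was not tested.

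Of the pi class, Gstp3 fell and Gstp1 was not called. Gstp1, the conjugating enzyme abundant in male mouse liver, read 11.70, 11.26 and 11.41 in knockout fasted, 11.62, 11.59, 11.39 and 11.39 in knockout fed, 11.67, 12.01, 11.93, 11.60 and 11.97 in wild-type fasted and 11.57, 12.13, 11.76 and 11.84 in wild-type fed livers. Its fasting differences were -0.04 ± 0.14 in knockout and 0.01 ± 0.12 in wild-type mice, neither called. Gstp3, a close relative next to Gstp1 and Gstp2 on chromosome 19, read 5.11, 4.90 and 4.75 in knockout fasted, 5.38, 5.45, 5.71 and 5.76 in knockout fed, 5.43, 4.92, 5.02, 4.91 and 4.83 in wild-type fasted and 5.83, 5.55, 5.85 and 5.61 in wild-type fed livers. Fasted livers lay below fed livers in both genotypes. Gstp3 fell 1.58-fold in knockout (-0.66 ± 0.14, limma adjusted p = 0.0137) and 1.61-fold in wild-type mice (-0.69 ± 0.12, adjusted p = 0.00167). In knockout mice the call was lost without knockout fasted mouse 2 or 3 (adjusted p up to 0.0870).

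The omega and theta classes held the Gst genes that rose. Gsto1 reduces dehydroascorbate and methylated arsenic and removes glutathione from proteins. It read 7.86, 7.73 and 7.75 in knockout fasted, 7.27, 7.02, 7.18 and 6.88 in knockout fed, 7.83, 7.74, 8.02, 7.50 and 7.42 in wild-type fasted and 6.89, 7.43, 6.90 and 6.46 in wild-type fed livers. Only wild-type fed mouse 2 and wild-type fasted mouse 5 met. Gsto1 rose 1.61-fold in knockout (0.69 ± 0.18, limma adjusted p = 0.0396) and 1.72-fold in wild-type mice (0.78 ± 0.16, adjusted p = 0.00394). In knockout mice the call was lost on leaving out 1 mouse in 8 of 16 cases, namely any knockout fasted mouse, knockout fed mouse 1, 2 or 4, wild-type fed mouse 3 or wild-type fasted mouse 2. Over all single omissions the value ran from 0.62 to 0.75, with an adjusted p of up to 0.139. Centring the arrays on a common median also lost the Gsto1 knockout call (0.68, adjusted p = 0.0557). Its neighbour Gsto2 was dim, with group means of 2.16 to 2.24 and no call.

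The theta genes, which handle small halogenated compounds and sulfate esters, lie side by side on chromosome 10 in the order Gstt3, Gstt1, Gstt4 and Gstt2, and their fasting differences had both signs. Gstt2 read 7.43, 7.04 and 7.27 in knockout fasted, 6.16, 6.47, 6.46 and 5.34 in knockout fed, 7.52, 7.53, 7.68, 7.80 and 7.29 in wild-type fasted and 6.48, 6.26, 6.67 and 6.36 in wild-type fed livers. All 8 fasted livers lay above all 8 fed livers. It rose 2.20-fold in knockout (1.14 ± 0.21, limma adjusted p = 0.00549) and 2.17-fold in wild-type mice (1.12 ± 0.18, adjusted p = 0.000891), and both calls held without any 1 mouse. Fitted on the knockout groups alone, the Gstt2 call in knockout mice was lost at the same difference (adjusted p = 0.0555). Gstt1 read 8.09, 7.71 and 7.81 in knockout fasted, 8.36, 8.50, 8.12 and 7.80 in knockout fed, 7.62, 7.85, 7.76, 7.50 and 7.63 in wild-type fasted and 8.12, 8.31, 7.98 and 8.01 in wild-type fed livers. The wild-type groups were apart and the knockout groups overlapped. Gstt1 fell 1.35-fold in wild-type mice (-0.43 ± 0.13, adjusted p = 0.0396), against -0.33 ± 0.14 in knockout mice (adjusted p = 0.280). The wild-type call was lost without any wild-type fed mouse, wild-type fasted mouse 1, 3, 4 or 5, or knockout fasted mouse 3 (values from -0.48 to -0.37 over all single omissions, adjusted p up to 0.123), and under quantile normalization (-0.39, adjusted p = 0.0836).

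Gstt3 was not called, at -0.59 ± 0.19 in knockout and 0.07 ± 0.17 in wild-type mice (limma adjusted p = 0.108 and 0.836). It became a knockout call without wild-type fed mouse 2, at an adjusted p of 0.0486. Gstt4 was dim, reading 2.08, 2.07 and 2.09 in knockout fasted, 2.47, 2.47, 2.33 and 2.27 in knockout fed, 2.07 to 2.28 in wild-type fasted and 2.11 to 2.25 in wild-type fed livers. Its call of -0.30 ± 0.08 in knockout mice (adjusted p = 0.0366) was lost without knockout fed mouse 1 or 2 or any knockout fasted mouse (adjusted p up to 0.126), and with the knockout groups fitted alone (adjusted p = 0.134).

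**Figure D3:**
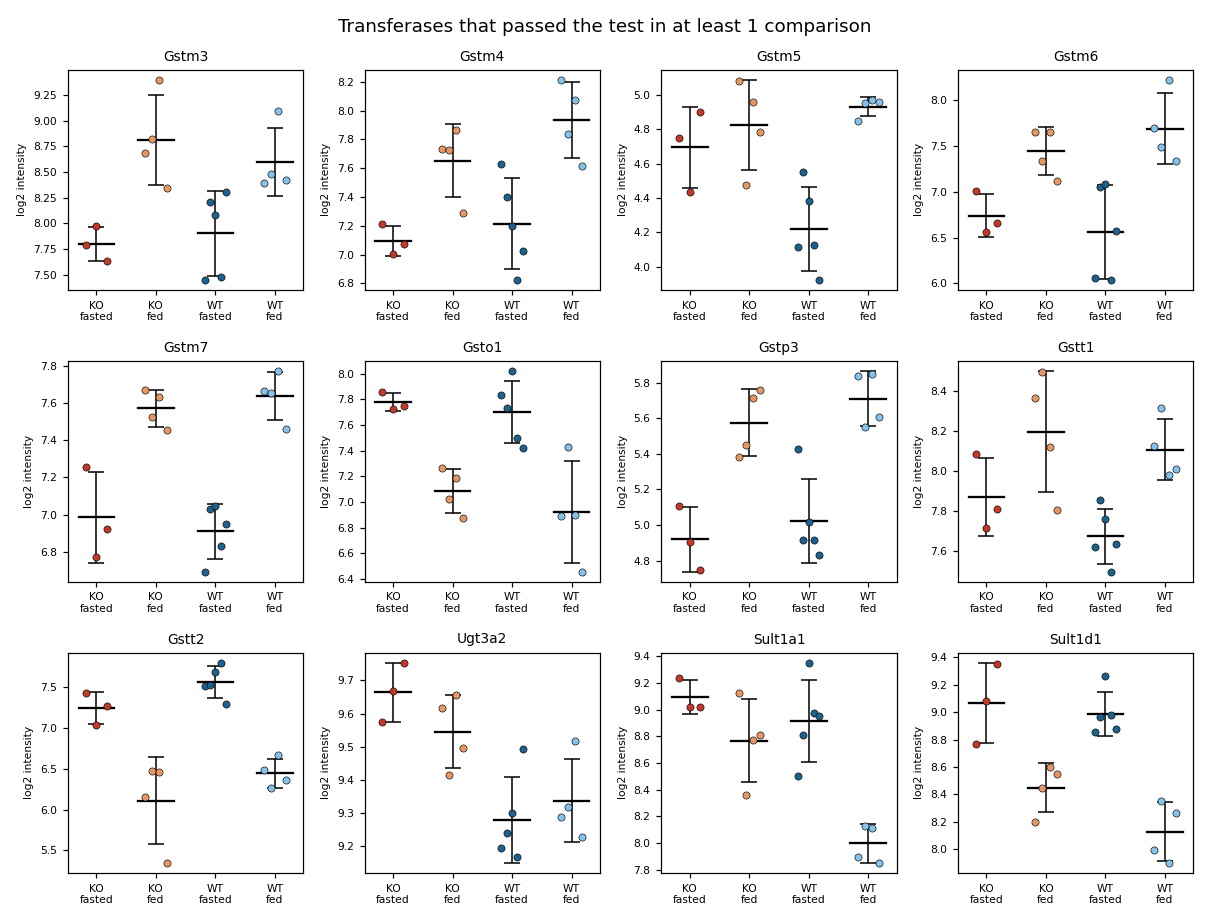
Log2 intensity per liver of the 12 called members that were not dim (points, with the group mean and SD as lines, n = 3 knockout fasted, 4 knockout fed, 5 wild-type fasted and 4 wild-type fed). Each panel has its own axis, which does not start at 0. In the Gstt2 and Sult1d1 panels all fasted livers lie above all fed livers, and Gstm6, Gstm7 and Gstp3 show the fasted livers below the fed livers of their genotype.

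In the alpha class, which clears lipid peroxidation products, neither Gsta3 nor Gsta4 was called. Gsta3, one of the constitutive liver enzymes, read 10.24, 10.50 and 10.26 in knockout fasted, 10.78, 10.77, 10.81 and 10.63 in knockout fed, 9.93, 10.61, 10.63, 10.45 and 10.87 in wild-type fasted and 10.68, 10.80, 10.83 and 10.82 in wild-type fed livers. The knockout groups were apart and the wild-type groups overlapped. The differences were -0.42 ± 0.15 and -0.28 ± 0.13 (limma adjusted p = 0.171 in knockout and 0.219 in wild-type mice). Without wild-type fasted mouse 1, the knockout adjusted p was 0.0240 at the same difference. Gsta4, which conjugates 4-hydroxynonenal, differed by -0.26 ± 0.35 in knockout and -0.89 ± 0.30 in wild-type mice (adjusted p = 0.815 and 0.0829). Wild-type fasted mouse 1 was at 6.05 and the other 4 wild-type fasted mice at 7.65 to 8.21, and leaving out 1 mouse gave wild-type values from -1.07 to -0.53. It became a call without wild-type fasted mouse 2 (adjusted p = 0.0385).

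Gsta1 and Gsta2, the alpha enzymes known to be inducible, were read by 4 shared probe sets that also list Gm10639 and Gm3776. In the fit of all probe sets their fasting differences were 0.15 to 0.18 in knockout mice (adjusted p of 0.867 to 0.904) and 0.64 to 0.67 in wild-type mice (0.155 to 0.247), so none was called. On the first of them, wild-type fasted mice 2 and 3, at 7.86 each, were above all other livers. The remaining Gst classes had no call. Gstz1, the maleylacetoacetate isomerase of tyrosine breakdown, differed by 0.05 ± 0.07 in knockout and 0.03 ± 0.06 in wild-type mice, and Gstk1, a mitochondrial and peroxisomal enzyme, by 0.06 ± 0.18 and 0.01 ± 0.16.

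The Sult genes that rose on fasting both belong to the phenol-sulfating Sult1 family. Sult1d1, which in the mouse sulfates catecholamines and eicosanoids, read 8.77, 9.08 and 9.35 in knockout fasted, 8.20, 8.45, 8.60 and 8.55 in knockout fed, 8.86, 8.96, 9.26, 8.98 and 8.88 in wild-type fasted and 7.99, 8.35, 7.90 and 8.27 in wild-type fed livers. Fasted livers lay above fed livers in both genotypes. It rose 1.53-fold in knockout (0.62 ± 0.15, limma adjusted p = 0.0247) and 1.81-fold in wild-type mice (0.86 ± 0.13, adjusted p = 0.00042). In knockout mice the call was lost without knockout fed mouse 1 or knockout fasted mouse 2 or 3 (values from 0.47 to 0.77 over all single omissions, adjusted p up to 0.153), and with the knockout groups fitted alone (adjusted p = 0.0744).

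Sult1a1, the main phenol sulfotransferase of liver, read 9.24, 9.02 and 9.02 in knockout fasted, 9.12, 8.36, 8.78 and 8.81 in knockout fed, 8.50, 8.81, 9.35, 8.97 and 8.95 in wild-type fasted and 7.90, 8.13, 8.12 and 7.85 in wild-type fed livers. The wild-type fed livers were below all the others. It rose 1.89-fold on fasting in wild-type mice (0.92 ± 0.15, limma adjusted p = 0.000965), and the value in knockout mice was 0.32 ± 0.17 (adjusted p = 0.409). The responses were not shown to differ (-0.60 ± 0.23, adjusted p = 0.324).

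Of the other Sult genes, Sult2a8, a bile acid sulfotransferase of mouse liver, read 9.97, 10.20 and 9.96 in knockout fasted, 9.80, 10.13, 10.05 and 9.65 in knockout fed, 10.04, 9.86, 9.93, 10.16 and 9.74 in wild-type fasted and 10.03, 9.995, 10.30 and 10.05 in wild-type fed livers. These groups overlapped throughout, and the fasting differences were 0.13 ± 0.12 in knockout and -0.15 ± 0.11 in wild-type mice. Sult1e1, the estrogen sulfotransferase, was dim, and 3 wild-type fasted mice stood above the rest at 4.25, 2.71 and 2.55, the other 2 being at 1.87 and 1.95. Its wild-type difference of 0.85 ± 0.32 was not called (adjusted p = 0.121) and ran from 0.45 to 1.05 when 1 mouse was left out. Of the 10 dim Sult genes none was called, and Sult1b1, Sult1c2 and Sult5a1, which were not dim, were not called either.

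The 10 Ugt genes had small fasting differences. These ran from -0.21 to 0.32 in knockout and from -0.41 to 0.11 in wild-type mice, and 0 were called by limma in either genotype. UGT2B enzymes glucuronidate steroids and bile acids, and 8 of the 10 are Ugt2 genes in 1 run of 13 genes on chromosome 5 that ends with Sult1b1, Sult1d1 and Sult1e1. Within that run Sult1d1 was called and the Ugt2 genes were not. Ugt2b36 read 10.72, 10.79 and 10.69 in knockout fasted, 10.52, 10.52, 10.66 and 10.34 in knockout fed, 10.41, 10.88, 10.85, 10.67 and 10.77 in wild-type fasted and 10.65, 10.58, 10.71 and 10.62 in wild-type fed livers. Knockout livers were separated by feeding state, by 0.23 ± 0.10 (adjusted p = 0.297), and wild-type livers were not (0.08 ± 0.09). Ugt2a3 read 10.29, 10.54 and 10.30 in knockout fasted, 10.07, 10.18, 10.38 and 9.94 in knockout fed, 9.99, 10.20, 10.21, 10.31 and 10.11 in wild-type fasted and 10.13, 10.07, 10.34 and 10.11 in wild-type fed livers, and overlapped between all groups. Ugt2b1 read 10.38, 10.29 and 10.26 in knockout fasted, 10.19, 10.27, 10.18 and 9.93 in knockout fed, 9.93, 10.21, 10.19, 10.09 and 9.86 in wild-type fasted and 10.21, 10.28, 10.48 and 10.31 in wild-type fed livers. Its differences were 0.17 ± 0.10 in knockout and -0.26 ± 0.09 in wild-type mice, and the difference between them, 0.43 ± 0.14, was not called (limma adjusted p = 0.271). The probe set shared by 8 Ugt1a genes, which include the bilirubin enzyme, differed by 0.11 ± 0.12 in knockout and 0.30 ± 0.10 in wild-type mice (adjusted p = 0.768 and 0.113). The probe sets shared by Ugt2a1 and Ugt2a2 and by Sult2a1, Sult2a2, Sult2a4 and Sult2a5 read at most 1.95 and 2.12 on any array.

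Few of these genes were called between the genotypes. In fed mice 1 of 45 members was called, Sult1a1, which was higher in knockout livers (2.22% of the members, against 0.677% of all genes, 0.451% higher and 0.226% lower). In fasted mice limma called 0 members (0.537% of all genes were called), and 6 had an unadjusted p under 0.05. In the mean of both feeding states 1 was called, Ugt3a2, again higher in knockout livers (1.55% of all genes were called, 0.963% higher and 0.587% lower). The comparisons share their arrays with the fasting comparisons, so the wild-type fed livers enter both the fasting rise and the genotype difference of Sult1a1.

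In fed mice Sult1a1 was 1.71-fold higher in knockout livers (0.77 ± 0.16, limma adjusted p = 0.0361), with the 4 knockout values of 8.36 to 9.12 above the 4 wild-type values of 7.85 to 8.13. In fasted mice the difference was 0.17 ± 0.17 (adjusted p = 0.777), and in the mean of both states 0.47 ± 0.12 (adjusted p = 0.0509). The fed call was lost without any wild-type fed mouse, knockout fed mouse 1 or 4, or knockout fasted mouse 2 or 3. Over all single omissions the value ran from 0.65 to 0.91, with an adjusted p of up to 0.107. At the same difference, the Sult1a1 call was also lost with the replicate number as a block (adjusted p = 0.0603) and with the fed groups fitted alone (adjusted p = 0.0682). Without both knockout fed mice 1 and 4 the Sult1a1 value was 0.57 (adjusted p = 0.326). The mean over both states became a call without wild-type fasted mouse 3 or knockout fed mouse 2 (adjusted p = 0.0154 and 0.0146).

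Ugt3a2, which in the human conjugates glucose and xylose in place of glucuronic acid, read 9.57, 9.67 and 9.75 in knockout fasted, 9.62, 9.41, 9.65 and 9.50 in knockout fed, 9.19, 9.24, 9.30, 9.17 and 9.49 in wild-type fasted and 9.29, 9.32, 9.52 and 9.23 in wild-type fed livers. Fasted knockout livers lay above all fasted wild-type livers, and the fed groups overlapped. The mean knockout effect was 0.30 ± 0.06 (limma adjusted p = 0.0243), from 0.39 ± 0.09 in fasted mice (adjusted p = 0.0717) and 0.21 ± 0.09 in fed mice (adjusted p = 0.313). The mean effect was lost as a call without wild-type fed mouse 1 or 4 or knockout fasted mouse 2 or 3 (values from 0.27 to 0.33 over all single omissions, adjusted p up to 0.0884), and without both knockout fed mice 1 and 4 (0.29, adjusted p = 0.0942). The fasted difference became a call without wild-type fasted mouse 5 (adjusted p = 0.0456).

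Its neighbour on chromosome 15, Ugt3a1, which in the human transfers N-acetylglucosamine, read 8.42, 8.30 and 8.59 in knockout fasted, 8.69, 8.15, 8.41 and 8.11 in knockout fed, 7.56, 7.66, 7.53, 7.82 and 8.27 in wild-type fasted and 7.72, 8.21, 8.66 and 8.14 in wild-type fed livers. The fasted groups did not overlap, but the difference was not called (0.67 ± 0.19, limma adjusted p = 0.178). A pair of probe sets shared by Ugt3a1 and Ugt3a2 gave mean knockout effects of 0.30 ± 0.07 and 0.29 ± 0.07 in the fit of all probe sets (adjusted p = 0.0704 and 0.0741). They are not independent of each other or of the single-gene probe sets, since they may read the same transcripts.

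Gstp1 lay on the other side, at -0.36 ± 0.09 in the mean knockout effect (limma adjusted p = 0.0669), from -0.38 ± 0.13 in fasted and -0.33 ± 0.13 in fed mice. It became a call without wild-type fed mouse 1 or knockout fasted mouse 1 (adjusted p = 0.0450 and 0.0416). The pair of probe sets shared by Gstp1 and Gstp2 were at -0.33 ± 0.10 and -0.32 ± 0.11, neither called. Ugt2b37 had a mean knockout effect of 0.72 ± 0.23 that was not called (adjusted p = 0.181), and its knockout fed values were 6.33, 5.44, 4.57 and 4.52, so that mouse 1 stood above the rest of its group. The mu, theta and alpha genes had mean knockout effects of -0.33 to 0.18, none called.

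**Figure D4:**
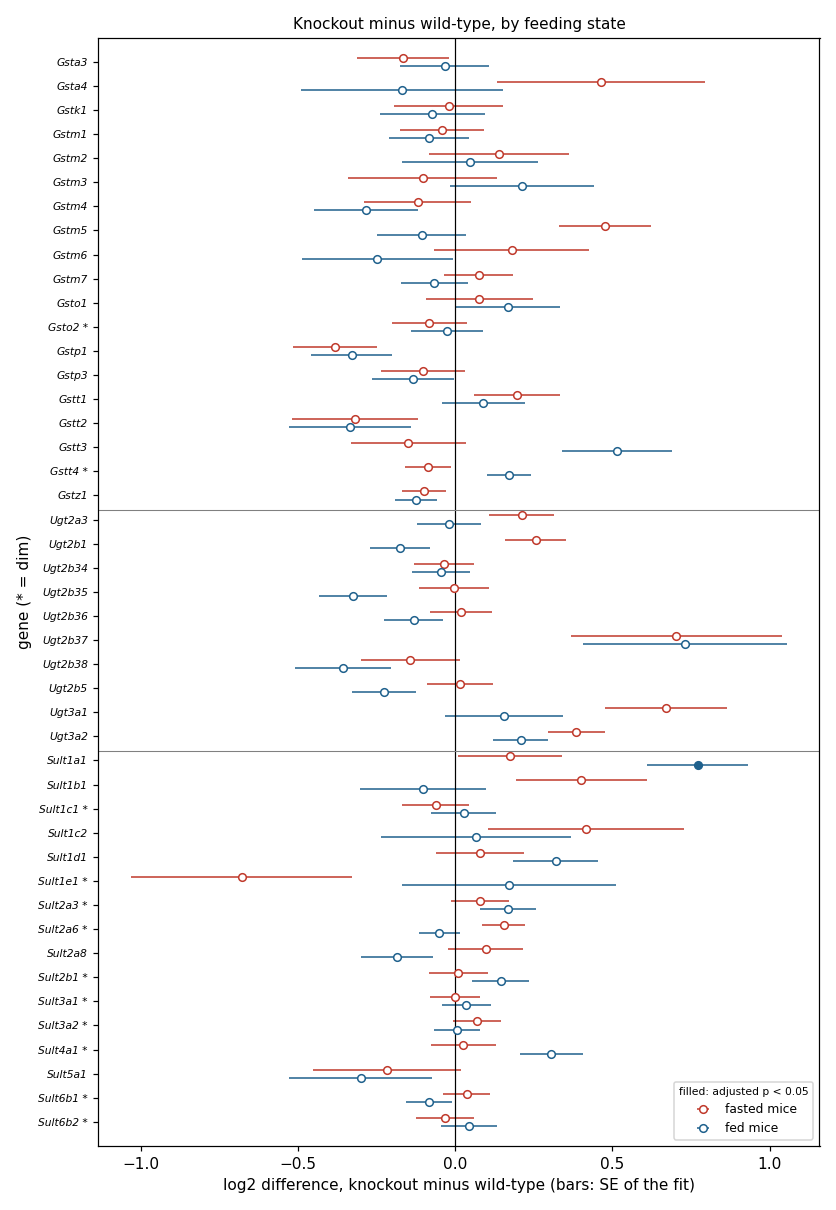
Knockout minus wild-type log2 difference of each member in fasted and in fed mice (points, with the SE of the limma fit as bars, filled where the adjusted p was under 0.05, dim genes starred). Sult1a1 in fed mice is the filled point, and Ugt3a1, Ugt3a2 and Ugt2b37 lie right of 0 in both states while Gstp1 lies left.

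Cell markers were also called between the genotypes. Of the 8 Kupffer cell and macrophage markers, 5 were called higher in the mean knockout effect (median 0.47, against 1.55% of all genes called), led by Clec4f, a Kupffer cell lectin, at 0.71 ± 0.08. Their summed intensity was 675 to 815 in knockout fasted, 907 to 993 in knockout fed, 436 to 705 in wild-type fasted and 567 to 684 in wild-type fed livers, and none of the 8 was dim. Of the other cell type lists, Lyve1 of sinusoidal endothelium was called higher (0.53 ± 0.12). Rgs5 of stellate cells (-0.35 ± 0.08), Alas2 of erythroid cells (-0.40 ± 0.09) and the intestine marker Apoa4 (-0.67 ± 0.13), which liver also expresses, were called lower. Each was the only call in its list. In those lists 4 of 8 endothelial, 4 of 9 stellate, 2 of 3 erythroid and 1 of 8 intestine markers had mean knockout effects above 0. The 9 hepatocyte markers were not called between genotypes, and the acute phase genes were higher in knockout fed mice 1 and 4 as described. The part of these differences in the values of Sult1a1 and Ugt3a2 was not tested. Among members, Sult1c1, Sult1c2 and Sult6b1 lie on chromosome 17 with Ppard, at least 464 coding genes away from it, and none was called between genotypes. Sult1c1 and Sult6b1 were dim (means 2.00 and 1.70), so a difference there could hardly be seen.

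**Figure D5:**
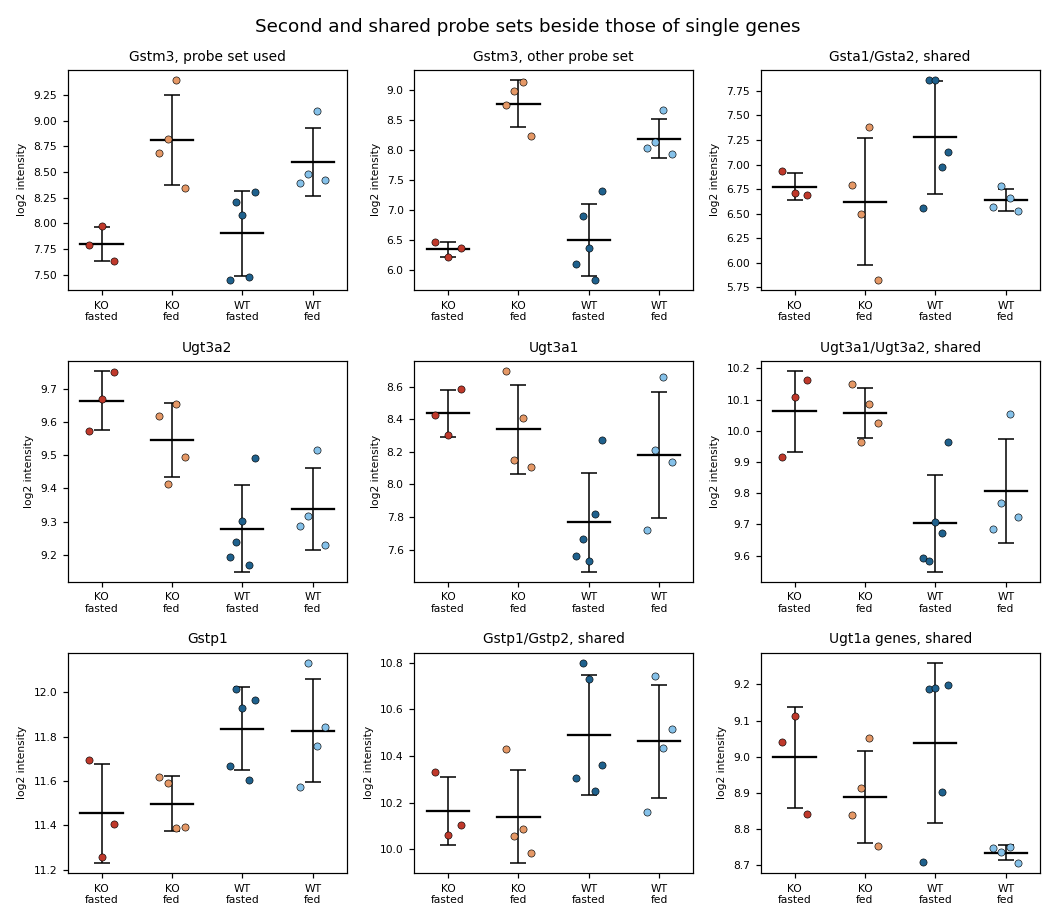
Log2 intensity per liver for second and shared probe sets beside the single-gene ones (points, with the group mean and SD as lines, n = 3 knockout fasted, 4 knockout fed, 5 wild-type fasted and 4 wild-type fed, each panel on its own axis that does not start at 0). The other Gstm3 probe set separates fasted from fed livers by a wider gap than the one used, and the shared Ugt3a1/Ugt3a2 set is higher in most knockout livers.

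The genes that supply and surround these enzymes were counted in lists made from general knowledge, to be read against the 3.67% and 9.22% of all genes called on fasting in knockout and wild-type mice. Of 18 measured genes of glutathione supply, 1 rose in knockout mice on fasting, while 2 rose and 1 fell in wild-type mice. Mat1a, which makes S-adenosylmethionine at the head of cysteine synthesis, rose in both (0.61 ± 0.10 in knockout and 0.87 ± 0.09 in wild-type mice). Oplah, which recovers glutamate from 5-oxoproline, rose by 0.99 ± 0.17 in wild-type mice, and Chac2, which degrades glutathione, fell by 0.38. The limiting synthesis genes Gclc and Gclm were not called. In this list Nat8, which acetylates cysteine conjugates to mercapturates, was lower in knockout livers (-1.10 ± 0.19 in fed mice, limma adjusted p = 0.0106).

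Of 21 other glutathione enzymes, 1 rose in knockout mice, and 1 rose and 3 fell in wild-type mice. Glrx, a thiol reductase, rose in both (0.91 ± 0.15 in knockout and 0.76 ± 0.13 in wild-type mice). In wild-type mice Glo1, the glyoxalase that clears methylglyoxal, fell by 0.63, and the chloride channel proteins Clic1 and Clic4, which share the Gst fold, fell by 0.56 and 0.35. Glo1 was also higher in knockout fasted livers than in wild-type fasted livers (0.94 ± 0.12, limma adjusted p = 0.00227). It lies on chromosome 17, 38 coding genes from Ppard.

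Of 15 genes of UDP-glucuronate supply and other glycosyl steps, 0 rose and 3 fell in knockout mice, while 2 rose and 3 fell in wild-type mice. Slc35b1, a nucleotide transporter of the endoplasmic reticulum, fell in both (-0.60 ± 0.12 in knockout and -0.97 ± 0.11 in wild-type mice), as did the glycoprotein folding sensor Uggt1 (-0.49 ± 0.12 and -0.51 ± 0.11). Ugdh, which makes UDP-glucuronate, fell by 0.55 in knockout mice. Between genotypes, Slc35b1 was higher in knockout than in wild-type fasted livers (0.65 ± 0.12, limma adjusted p = 0.0181). It was also higher in the mean knockout effect (0.46 ± 0.08, adjusted p = 0.00776), where Pgm1 was lower (-0.21 ± 0.05, adjusted p = 0.0410). Of 16 genes of sulfate donor supply and desulfation, 1 rose and 1 fell in knockout mice. In wild-type mice 1 rose (Cdo1) and 3 fell (Papss1, Bpnt1 and the sulfatase Arsb). Papss1, one of the PAPS synthases, fell in both (-1.0 ± 0.19 in knockout and -0.83 ± 0.17 in wild-type mice), and Cdo1, the cysteine dioxygenase, rose in both (0.33 ± 0.08 and 0.28 ± 0.07). Papss2, the other PAPS synthase, was not called on fasting, with group means of 8.59 in knockout fasted, 8.54 in knockout fed, 8.54 in wild-type fasted and 8.45 in wild-type fed livers.

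Among 16 conjugate transporters, 3 rose and 2 fell in knockout mice, and 4 rose and 3 fell in wild-type mice. The export pump Abcc3 rose by 1.48 ± 0.28 in knockout and 1.15 ± 0.24 in wild-type mice, and the uptake carrier Slco1a4 by 1.51 ± 0.29 and 1.79 ± 0.25. Slc22a7, an organic anion carrier, fell in both (-1.82 ± 0.26 and -1.80 ± 0.23). Between genotypes, Slco1a1 was higher in knockout than in wild-type fasted livers (0.68 ± 0.14, limma adjusted p = 0.0413). Abcb1b was lower in knockout than in wild-type fed livers (-1.28 ± 0.27, adjusted p = 0.0426). Of 24 regulators, 4 rose in knockout mice, and 7 rose and 2 fell in wild-type mice. Nr1i3 (CAR) rose by 1.51 ± 0.22 in knockout and 1.60 ± 0.19 in wild-type mice, Nr1i2 (PXR) by 0.71 ± 0.18 and 0.90 ± 0.15, and Ppara by 0.90 ± 0.20 and 1.00 ± 0.17. Nfe2l2, which encodes NRF2, was not called. In the mean knockout effect Nr1i3 was lower in knockout livers (-0.61 ± 0.15, limma adjusted p = 0.0442), with Nr1h4 and Pparg. Of 14 target genes of these regulators, 3 rose in each genotype, all of them targets of PPARα, Cyp4a14, Cyp4a10 and Aldh3a2. Targets of the other regulators in the list were not called on fasting. They include Nqo1 for NRF2, Cyp1a2 for the aryl hydrocarbon receptor, Cyp2b10 for CAR and Cyp3a11 for PXR. Nqo1 and Cyp2b10 had means of 2.91 and 3.20 over all arrays, near the dim limit of 2.79, so a difference there could be missed. Cyp1a2 and Cyp3a11 had means of 10.19 and 10.50. The activity of the regulators was not tested. In fed mice Cyp4a10 and Hmox1, the heme oxygenase that NRF2 also drives, were higher in knockout than in wild-type livers (2.07 ± 0.39 and 1.29 ± 0.27, limma adjusted p = 0.0196 and 0.0389).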

How the data were processed

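The authors made the deposited intensities with RMA, per the submitters' processing notes. The software version and the array's genome build were not found in those sources. The values were linear (array medians 8.08 to 8.61), and log2 was taken here. Of 35519 probe sets, 21780 named a single gene, 1605 named several genes and 12134 named no gene.

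Group means were fitted to all 16 arrays in limma 3.58.1 under R 4.3.3, using lmFit and eBayes with no intensity trend (12 residual and 4.55 prior degrees of freedom). The 6 contrasts were fasting in each genotype, knockout in each feeding state, the difference between the fasting responses, and the mean knockout effect. Tests were two-sided, with Benjamini-Hochberg adjustment over 19935 genes. The fit was tested on simulated data.

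Values per liver are given for members called in a contrast (at most 12 each) and for the 3 of highest mean in each family; others named were chosen after their values were seen. The members and lists were chosen with earlier results of these data known. Gene order and promoter windows came from RefSeq tables of GRCm38.p6. The submitters give 4 to 5 mice per group, and the knockout fasted group has 3 arrays here. Deviations of same-numbered mice of different groups correlated at -0.253 to 0.231 over 21 pairs, with both signs. Replicate numbers were not used as pairs in the main fit. The alternatives were quantile normalization, median centring, dropping dim genes, a median over the probe sets of each gene, eBayes with trend and robust variance, array weights, a replicate block, the compared groups alone, and leaving out each mouse, or knockout fed mice 1 and 4 together.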

Additional observations from a re-analysis of the deposited data

Results flagged for a closer look

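In 135 tests of members within groups of 4 or 5 livers, 6 values lay far from the others by Dixon's criterion, and chance alone flags about 1 in 20. Gsta4 was at 6.05 in wild-type fasted mouse 1, with the next at 7.65. In wild-type fed mouse 3, Gstm3 was at 9.10 (next 8.48), Sult1c2 at 4.40 (next 3.97) and the dim Gstt4 at 2.11 (next 2.23). In wild-type fasted mouse 5, which also had the high pancreas markers, the dim genes Sult4a1 and Sult2a6 were at 2.84 (next 2.52) and 1.63 (next 1.74).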

How the results depend on the processing

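No member's difference changed sign while called, in any alternative run. Of the 10 wild-type fasting calls, 9 held under all 25 alternatives; Gstt1 was lost under quantile normalization and 9 omissions of 1 mouse. Over omissions of 1 mouse, the members called ranged from 9 to 12 for fasting in wild-type mice, 1 to 8 for fasting in knockout mice, 0 to 1 for knockout in fed mice, 0 to 1 for knockout in fasted mice, 0 to 0 for the interaction and 0 to 2 for the mean knockout effect. For fasting in knockout mice, the compared groups alone gave 4 calls (Gstt2, Gstt4 and Sult1d1 were lost), centring on a common median lost Gsto1, and leaving out knockout fed mice 1 and 4 gave 2. For knockout in fed mice, the compared groups alone, that omission and the replicate block each gave 0, which lost Sult1a1. For knockout in fasted mice, array weights and the replicate block each gave 1 (Ugt3a2). For the mean knockout effect, quantile normalization and leaving out dim genes gave 2, an intensity trend and array weights gave 3, and leaving out knockout fed mice 1 and 4 gave 0; Sult1a1 joined in the first 4 and Gstp1 (lower) in the trend and weights fits. The cause of these changes was not tested. No scaling moved the median of all genes by 0.1.

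Same-numbered mice of different groups correlated at -0.253 to 0.231 over 21 pairs, 6 of them over 0.1. With the replicate block, fasting calls numbered 13 in wild-type and 9 in knockout mice, knockout calls 0 fed, 1 fasted and 1 in the mean, and the interaction 0. Gstm2 was called in both genotypes there (-0.75 in knockout and -0.62 in wild-type mice).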
